A study of Notophthalmus viridescens with 18 samples.

Results

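The transcripts described here encode 4 secreted antagonists of the bone morphogenetic protein (BMP) and Wnt pathways, measured by bulk RNA-seq in A1 cells, a myogenic limb cell line of the newt Notophthalmus viridescens. They are Nog2 (comp418778_c0_seq1), Grem1 (comp513295_c0_seq1), Chrd (comp365346_c1_seq2) and Dkk1 (comp69154_c0_seq1), 4 of the 27395 entries in every deposited table, and were taken by these identifiers. They come from panels of the study that show Wnt and BMP transcripts in serum-treated and conditioned medium-treated myotubes, and were selected on their higher CPM and TPM in MT_10% than in MT_0.25%, with earlier results of these data known. That rise is therefore given as a description, without a test. The deposited tables hold no sequences and the transcripts carry names of contigs of a de novo assembly, so they are given by identifier, without genome positions.

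There were 18 libraries, 3 in each of 6 groups, all of wild-type A1 cells. PRO cells proliferated in 10% FCS with DMSO, were split once, and were taken on day 12. SEN cells, senescent cells, received 20 µM etoposide, which damages DNA, together with 1 µM nutlin, which stabilises p53, for 24 h. They were then held in 1 µM nutlin and 10% FCS until day 12. Myotubes were formed over 5 days in 0.25% FCS and taken on day 8. For the 3 days before that, MT_0.25% myotubes had fresh low-serum medium and MT_10% myotubes had medium with 10% FCS. The MT_0.25%_PRO_CM group, here called PRO CM myotubes, had low-serum medium conditioned for 48 h by PRO cells, and the MT_0.25%_SEN_CM group, here called SEN CM myotubes, had the same from SEN cells. Myotubes were sorted by size, through a 100 µm filter onto a 30 µm filter by the labels, and no filter was used for the mononucleate PRO and SEN cells. All groups come from a single cell line, and the sources used here do not say whether replicates were separate cultures, so p-values measure the spread between these libraries, which may be technical.

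BMPs are secreted ligands that signal through serine/threonine kinase receptors to SMAD proteins. Noggin, gremlin 1 and chordin are extracellular proteins that bind BMPs and keep them from their receptors. They limit BMP signals in the embryo and in the developing vertebrate limb. Wnt ligands bind Frizzled receptors and LRP5/6 co-receptors to stabilise beta-catenin, and Dickkopf 1 blocks this by binding the LRP co-receptors. In vertebrate muscle, BMP signals tend to hold precursors in the proliferating state and Wnt signals take part in differentiation. The names are closest hits in other species, and for Nog2 and Dkk1 the reading frame that the study's annotation gives ends beyond the deposited length, as it does for 12 of the 36 Wnt and BMP transcripts on those panels. These names are given as the study has them.

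Estimated reads per library ran from 20609828 to 62991718. Levels are given as CPM, reads scaled to a common library total after TMM scaling (a correction for unequal library composition), and comparisons use edgeR's quasi-likelihood test across 23107 transcripts with Benjamini-Hochberg adjustment, called at an adjusted p under 0.05. Levels of different transcripts are set side by side only as deposited TPM, which is scaled for length. The labelled cell states showed in their markers. Myog, a myogenic regulator, stood at 238.4 to 461.1 CPM in the myotube libraries and 29.1 to 64.0 in PRO and SEN, and Ckma, muscle creatine kinase, at 32.4 to 103.6 against 0.262 to 1.07. SEN libraries had less of the cell cycle transcript Ccnb1 (1.37 to 1.89 CPM) than PRO libraries (95.9 to 127.4), less Lmnb1 (1.60 to 1.79 against 10.1 to 21.2) and more of the protease Mmp3/10a (108.5 to 170.2 against 14.2 to 24.6). TMM factors were 0.617 to 0.710 in PRO and 1.21 to 1.37 in SEN. With library totals alone, the median log2 fold change of all transcripts was 1.20 in SEN against PRO and 1.20 in MT_0.25% against PRO, where TMM gave 0.27 and 0.20. Comparisons with PRO are therefore read relative to these medians.

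**Figure D1:**
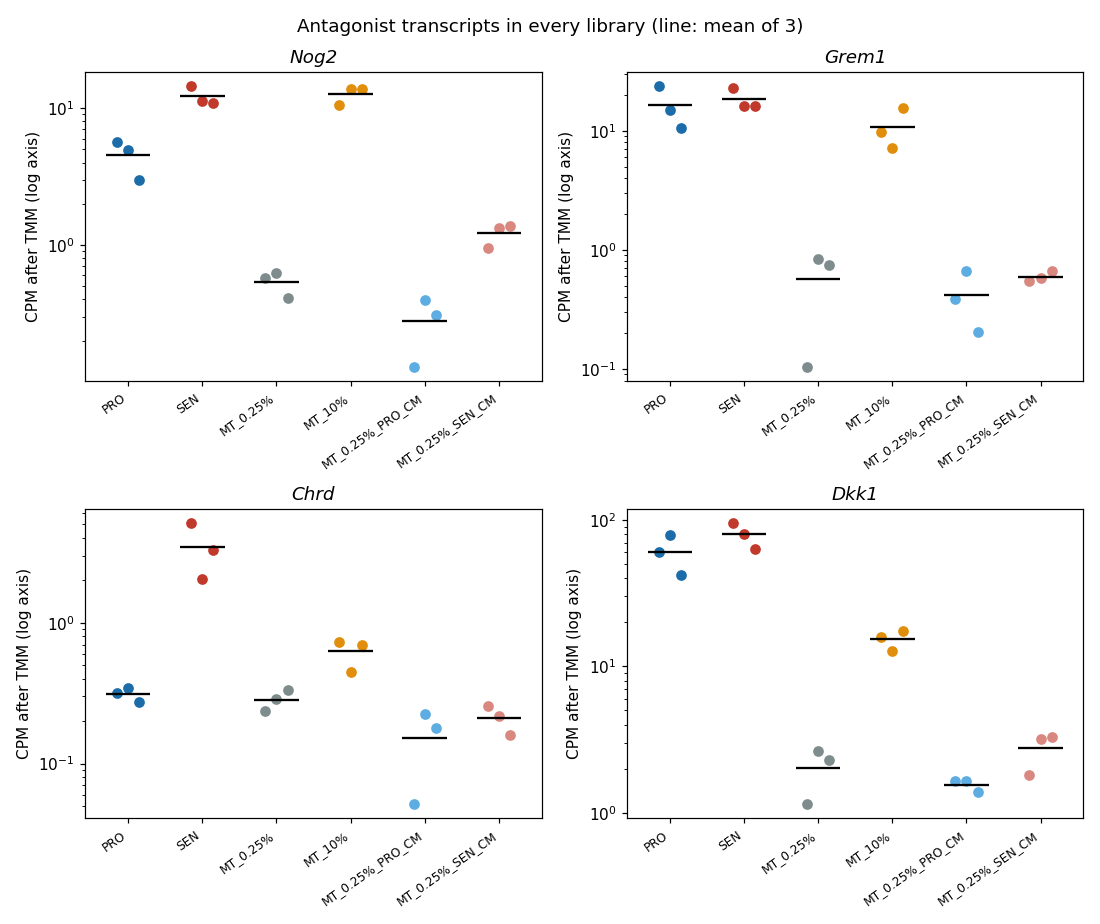
CPM after TMM (log axis) of Nog2, Grem1, Chrd and Dkk1 in each of the 18 libraries, with a line at the mean of the 3 libraries of a group. Nog2 was highest in MT_10% and SEN, Grem1 in SEN, PRO and MT_10%, Chrd in SEN, and Dkk1 in SEN and PRO.

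Nog2, a noggin transcript, was highest in serum-treated myotubes and senescent cells, intermediate in proliferating cells and lowest in low-serum myotubes. Its levels were 5.70, 4.98 and 3.00 CPM in the 3 PRO libraries and 14.5, 11.2 and 10.9 in SEN. They were 0.573, 0.622 and 0.408 in low-serum MT_0.25% and 10.6, 13.8 and 13.9 in MT_10%. With conditioned medium they were 0.129, 0.397 and 0.307 in PRO CM myotubes and 0.959, 1.34 and 1.39 in SEN CM myotubes. The order of the group means was thus MT_10% (12.8 ± 1.88 CPM, SD, n = 3), SEN (12.2 ± 2.02), PRO (4.56 ± 1.40), SEN CM myotubes (1.23 ± 0.233), MT_0.25% (0.534 ± 0.112) and PRO CM myotubes (0.278 ± 0.137). MT_10% and SEN overlapped, and no other neighbours in this order did. In TPM, SEN CM myotubes and MT_0.25% overlapped as well. In low serum the transcript rested on few reads, 33 over the PRO CM myotube libraries, 98 over MT_0.25% and 137 over SEN CM myotubes, against 2025 over MT_10%.

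Grem1, the gremlin 1 transcript, was abundant in both mononucleate populations and in serum-treated myotubes and scarce in every low-serum myotube group. It had 23.8, 14.9 and 10.6 CPM in PRO and 22.9, 16.2 and 16.2 in SEN. In MT_0.25% it had 0.104, 0.839 and 0.752 CPM, the first of these from 4 reads, and in MT_10% 9.83, 7.13 and 15.5. With conditioned medium it had 0.386, 0.670 and 0.205 in PRO CM myotubes and 0.543, 0.583 and 0.666 in SEN CM myotubes. The 6 groups thus formed a high and a low set that did not overlap: SEN (18.4 ± 3.85 CPM), PRO (16.4 ± 6.74) and MT_10% (10.8 ± 4.25) above SEN CM myotubes (0.598 ± 0.063), MT_0.25% (0.565 ± 0.401) and PRO CM myotubes (0.420 ± 0.234). Neighbours within each set overlapped. In TPM the order changed within both sets. The high set became SEN (8.90 TPM), MT_10% (5.01) and PRO (3.47), and SEN no longer overlapped PRO. The low set became MT_0.25%, PRO CM myotubes and SEN CM myotubes. Neighbours within each set again overlapped.

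Chrd, the chordin transcript, was the one of the 4 that was high in senescent cells alone. It had 0.319, 0.344 and 0.273 CPM in PRO and 5.10, 2.04 and 3.26 in SEN. In MT_0.25% it had 0.234, 0.289 and 0.331 CPM and in MT_10% 0.730, 0.447 and 0.700. With conditioned medium it had 0.0515, 0.223 and 0.179 in PRO CM myotubes and 0.256, 0.219 and 0.160 in SEN CM myotubes. SEN (3.47 ± 1.54 CPM) lay above MT_10% (0.626 ± 0.156), which lay above PRO (0.312 ± 0.036), each without overlap. PRO, MT_0.25% (0.285 ± 0.049), SEN CM myotubes (0.211 ± 0.048) and PRO CM myotubes (0.151 ± 0.089) followed, and each overlapped the next. Chrd had the fewest reads of the 4 transcripts, 25 over the PRO libraries, 55 over MT_0.25%, 86 over MT_10% and 18 over PRO CM myotubes, against 524 over SEN.

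Dkk1, the Dickkopf 1 transcript, was the most abundant of the 4 per length in every group. It had 60.2, 78.4 and 42.2 CPM in PRO and 95.0, 80.5 and 63.3 in SEN. In MT_0.25% it had 1.15, 2.65 and 2.28 CPM and in MT_10% 16.0, 12.8 and 17.4. With conditioned medium it had 1.65, 1.64 and 1.38 in PRO CM myotubes and 1.82, 3.18 and 3.30 in SEN CM myotubes. SEN (79.6 ± 15.9 CPM) and PRO (60.3 ± 18.1) overlapped, and both lay above MT_10% (15.4 ± 2.38) without overlap. MT_10% in turn lay above SEN CM myotubes (2.77 ± 0.823), MT_0.25% (2.02 ± 0.783) and PRO CM myotubes (1.56 ± 0.149). MT_0.25% overlapped both of its neighbours in this low set, while the SEN CM and PRO CM myotube libraries did not overlap. In TPM the gaps between groups changed: SEN lay above PRO without overlap and PRO overlapped MT_10%.

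**Figure D2:**
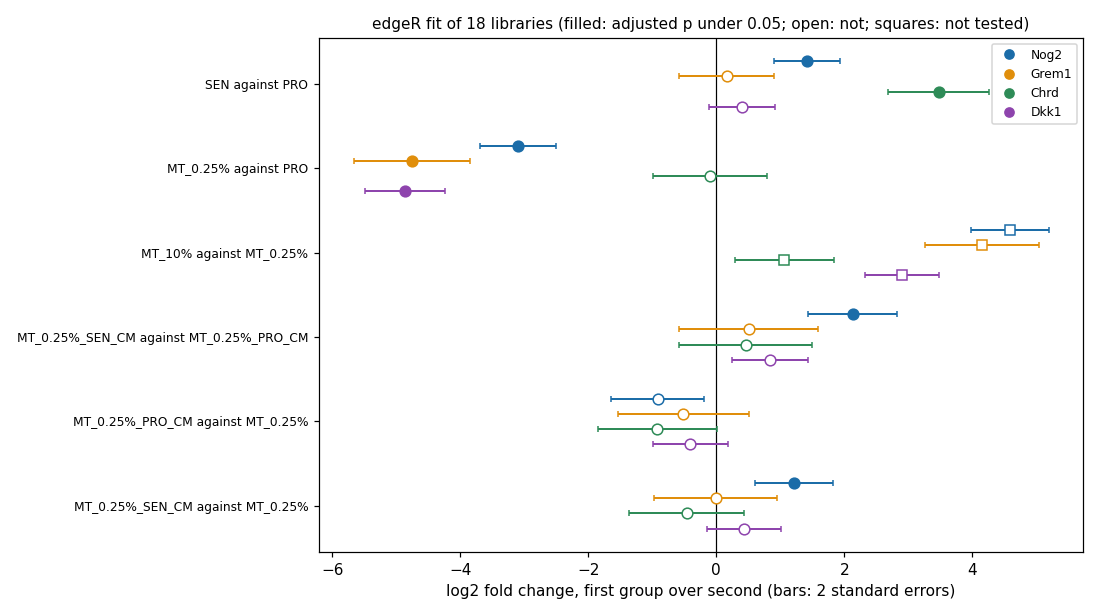
Log2 fold change (x axis, first group over second, bars 2 standard errors) of each antagonist transcript in 6 comparisons from 1 edgeR fit of 18 libraries. Filled circles have an adjusted p under 0.05, open circles do not, and squares mark the serum comparison, which was not tested. Nog2 and Chrd were called higher in SEN than in PRO. Nog2, Grem1 and Dkk1 were lower in MT_0.25% than in PRO. MT_0.25% is the low side of the comparison on which the transcripts were chosen, so filled circles in comparisons with MT_0.25% are descriptions.

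Senescent cells had more Nog2 and far more Chrd than proliferating cells, with the TMM-scaled fit. Chrd was 11.1-fold higher in SEN (log2 fold change 3.48, SE 0.40, adjusted p = 5.90e-07, edgeR) and Nog2 2.68-fold higher (1.42, SE 0.26, adjusted p = 1.21e-04, edgeR), each in 3 of 3 libraries without overlap. For Dkk1 the log2 difference was 0.40 (SE 0.26, adjusted p = 0.206) and for Grem1 0.16 (SE 0.37, adjusted p = 0.733), neither called by edgeR. The intervals of 2 standard errors ran from -0.12 to 0.92 for Dkk1 and from -0.58 to 0.91 for Grem1. So 2 of the 4 were called, where 50.9% of all transcripts tested were called and 28.2% were called higher, and 2 of 4 did not overlap between the groups, where 55.9% of all transcripts did not. This comparison shares no library with the serum comparison. The calls of Nog2 and Chrd held under every alternative run, including library totals (2.36 and 4.43).

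For Dkk1 and Grem1 the answer in SEN turned on the scaling. With library totals in place of TMM, an alternative chosen after the data were seen, the log2 difference was 1.36 for Dkk1 (adjusted p = 8.71e-04) and 1.10 for Grem1 (adjusted p = 0.0317), both called by edgeR, beside a median of 1.20 over all transcripts. Of these, Dkk1 lies above that median and Grem1 below it. By the deposited TPM, Dkk1 went from 29.7 ± 8.04 in PRO to 90.9 ± 25.9 in SEN and Grem1 from 3.47 ± 1.80 to 8.90 ± 2.68, without overlap. With limma on log2(TPM + 0.1), 15808 of all 23107 transcripts were called higher in SEN, at a median log2 fold change of 1.18. Library totals also moved the calls over all transcripts from 6526 higher and 5229 lower to 14356 higher and 1314 lower. Without PRO 3 or without SEN 1 the Grem1 difference was -0.074 and -0.024, not called.

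Myotubes in low serum had far less Dkk1, Grem1 and Nog2 than proliferating cells, while no difference in Chrd was called. Dkk1 was 29.2-fold lower (log2 fold change -4.87, SE 0.31, adjusted p = 4.17e-11, edgeR), Grem1 27.1-fold lower (-4.76, SE 0.45, adjusted p = 1.32e-08, edgeR) and Nog2 8.58-fold lower (-3.10, SE 0.30, adjusted p = 1.36e-08, edgeR), with no overlap between the groups. For Chrd the log2 difference was -0.096 (SE 0.44, adjusted p = 0.854, edgeR), with an interval of 2 standard errors from -0.98 to 0.79. The 3 called of 4 stand beside 69.7% of all transcripts called and 31.7% called lower, and the 3 of 4 without overlap beside 70.8%. The MT_0.25% libraries are the low side of the serum comparison on which the transcripts were chosen, so this fall is not independent of the choice. Its p-values are therefore descriptions.

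The 3 falls were called under every alternative, but their size was not the same in all. Each alternative again used MT_0.25% libraries, so this does not make the falls independent of the choice. With library totals they were -3.83 for Dkk1, -3.74 for Grem1 and -2.12 for Nog2, and by the deposited TPM the means differed 8.51-fold, 3.21-fold and 2.54-fold. The Chrd difference turned positive with library totals (0.91, adjusted p = 0.0835, not called by edgeR), and its TPM was higher in MT_0.25% (0.0815 ± 0.0301) than in PRO (0.0340 ± 0.00593) without overlap. Library totals moved the calls over all transcripts from 8779 higher and 7335 lower to 13930 higher and 2952 lower. With limma on log2(TPM + 0.1) they were 15654 higher and 1834 lower, at a median log2 fold change of 1.37. In bulk samples, fewer cells of a type and less RNA per cell cannot be told apart. MT_0.25% and PRO also differ at once in serum, myotube formation, filtering, day and, by the study's methods, RNA kit. The parts of these in the falls cannot be told apart.

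In myotubes given 10% FCS all 4 transcripts stood above MT_0.25%, the pattern for which they were chosen. Nog2 stood 24.1-fold higher (log2 fold change 4.59, SE 0.30), Grem1 17.8-fold (4.15, SE 0.45), Dkk1 7.46-fold (2.90, SE 0.29) and Chrd 2.09-fold (1.06, SE 0.39), each without overlap. Over all transcripts 40.0% were called in this comparison, 20.0% higher, and 54.9% did not overlap, and nothing is read from the members' count. By TPM the means differed 15.7-fold for Nog2, 4.63-fold for Grem1, 4.85-fold for Dkk1 and 1.89-fold for Chrd.

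Serum-treated myotubes did not return to one common share of the PRO level. Nog2 in MT_10% was at 280.1% of its PRO mean, Chrd at 200.7%, Grem1 at 65.7% and Dkk1 at 25.5%. In TPM the same shares were 616.0%, 452.7%, 144.4% and 56.9%, so Grem1 crossed the PRO level with the unit while the order of the 4 stayed. The MT_10% libraries overlapped PRO for Grem1 and not for the other 3 in CPM. These shares are side by side values, with no test, because they rest on the MT_10% libraries.

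Cells left over from the proliferating population among filtered myotubes could carry PRO transcripts, and their markers were followed beside the 4 antagonists. The markers were 13 transcripts at 1 CPM or more in PRO and at least 50-fold higher there than in MT_0.25%, outside the study's proliferation panel, of which only the protease inhibitor Timp1.1 has a name in the study's table. In MT_10% their median was 9.33% of the PRO level (range 0 to 47.3% over markers, 1 at 0) and their summed level was 2766 to 4523 CPM against 25959 to 39830 in PRO. Timp1.1 alone made up most of these sums, with means of 2755 CPM in MT_10% and 22118 in PRO. Nog2, Chrd and Grem1 in MT_10% were above all 13 markers in percent of PRO, and Dkk1 was above 12 of 13. In MT_0.25% Chrd (91.4% of PRO), Nog2 (11.7%), Grem1 (3.43%) and Dkk1 (3.36%) were already above all 13. The 4 were chosen for their rise in MT_10% and the markers for a low level in MT_0.25%. This ranking was largely set by those choices, and nothing is read from it. With a 20-fold rule, which takes in Grem1 and Dkk1 themselves and 95 others (median of all 97 in MT_10% 12.8%, highest 79.2%), 1 of the 95 stood above Grem1 in MT_10%, 18 above Dkk1 and none above Nog2 or Chrd. The same choices bear on the 20-fold ranking, and nothing is read from it either. Chrd, at a mean of 0.312 CPM in PRO, was under the level that the marker rule asks for. In MT_0.25% the median was 0.948% (0 to 1.90%, 2 at 0, summed level 150.7 to 439.1 CPM), a value that the marker rule keeps low. The cycling transcript Ccnb1 also moved, from 8.61 to 19.6 CPM in MT_0.25% to 50.3 to 58.1 in MT_10%. The part of such cells in the serum values was not tested.

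**Figure D3:**
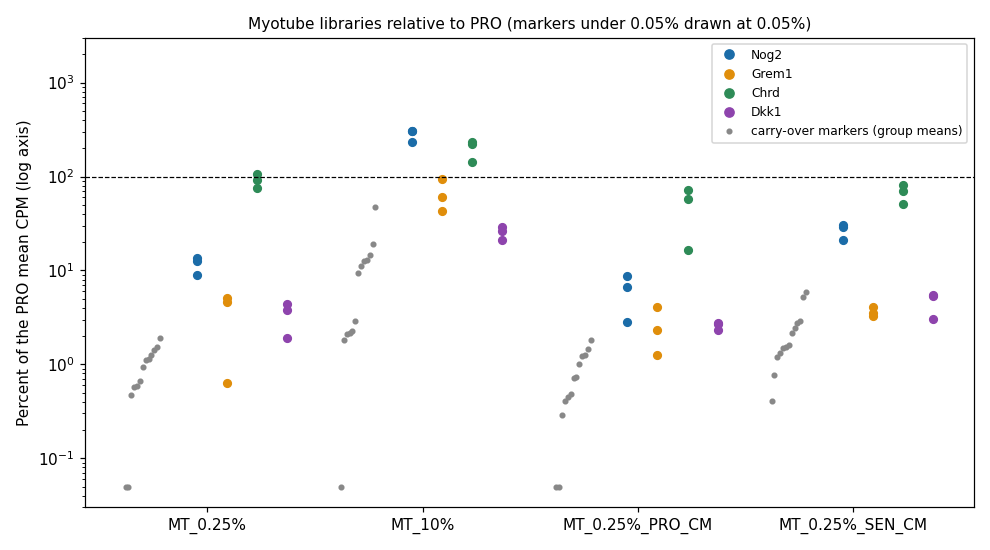
Each antagonist transcript in each myotube library as a percentage of its mean CPM in PRO (log axis, dashed line at 100%), beside the group means of 13 carry-over markers (grey). In MT_10% Nog2 and Chrd lay above the PRO level and Dkk1 at 25.5% of it. In SEN CM myotubes Nog2 lay at 26.9%, above these 13 markers but below 3 of the 95 others of a 20-fold rule. Nog2 was above these 13 in MT_0.25% (11.7%) and PRO CM myotubes (6.08%) too.

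Medium conditioned by senescent cells was compared with medium conditioned by proliferating cells. This comparison cannot separate secreted products from other differences between the media. Nog2 was 4.39-fold higher in SEN CM myotubes than in PRO CM myotubes (log2 fold change 2.13, SE 0.35, adjusted p = 0.00125, edgeR), in 3 of 3 libraries without overlap. Dkk1 did not pass the test although its libraries did not overlap (0.84, SE 0.30, adjusted p = 0.0852, edgeR). For Grem1 the log2 difference was 0.50 (SE 0.54, adjusted p = 0.589) and for Chrd 0.46 (SE 0.52, adjusted p = 0.609), neither called by edgeR, with intervals of 2 standard errors from -0.58 to 1.58 and from -0.58 to 1.49. Thus 1 of 4 was called, where 8.34% of all transcripts were called and 3.00% were called higher, and 2 of 4 did not overlap, where 29.6% of all transcripts did not. This comparison shares no library with the serum comparison, but the panels from which the transcripts were taken show these libraries too.

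The Nog2 call held with library totals, RLE scaling, DESeq2, the replicate block and every library left out in turn. It was lost with limma on TPM, at a log2 difference of 0.24 with a pseudocount of 1 (adjusted p = 0.415) and 0.88 with a pseudocount of 0.1 (adjusted p = 0.122). The TPM values were 0.0840, 0.270 and 0.138 in PRO CM myotubes and 0.218, 0.424 and 0.504 in SEN CM myotubes, and these overlap. With limma on log2(TPM + 1) the calls over all transcripts moved from 694 higher and 1233 lower to 92 higher and 1995 lower. Ccnb1 was also higher, at 23.3 to 28.2 CPM in SEN CM myotubes against 5.69 to 8.88, and Cdk1a at 28.0 to 36.9 against 4.79 to 8.19. Carry-over markers in SEN CM myotubes had a median of 1.59% of PRO (0.412 to 5.93%, none at 0, summed 385.6 to 581.4 CPM). In PRO CM myotubes the median was 0.724% (0 to 1.83%, 2 at 0, summed 142.1 to 218.1 CPM). Their mean summed level was 1.49% of PRO in SEN CM myotubes against 0.502% in PRO CM myotubes. Timp1.1 made up most of these sums too, with means of 330.0 CPM in SEN CM myotubes and 99.3 in PRO CM myotubes. Nog2 in SEN CM myotubes stood at 26.9% of PRO, above all 13 markers. It was already above all 13 in PRO CM myotubes (6.08%) and MT_0.25% (11.7%), so nothing is read from this ranking. For Grem1 (3.63% of PRO) and Dkk1 (4.59%), 2 of the 13 markers stood higher in SEN CM myotubes. With the 20-fold rule the median was 5.23% of PRO and the highest marker 46.4%, and of the 95 other markers 3 stood above Nog2, 63 above Grem1 and 55 above Dkk1. Nothing is read from these ranks either. The part of cycling or left-over cells in the Nog2 difference was not tested further.

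Against fresh 0.25% FCS, the 2 conditioned media lay on opposite sides for Nog2. SEN CM myotubes had 2.33-fold more Nog2 than MT_0.25% (log2 fold change 1.22, SE 0.31, adjusted p = 0.00465, edgeR), without overlap. For PRO CM myotubes the log2 difference was -0.92 (SE 0.36, adjusted p = 0.0694, edgeR), not called although the libraries did not overlap. Both comparisons use the MT_0.25% libraries, the low side of the serum comparison on which the transcripts were chosen. A rise over these libraries is thus not independent of that choice. The p-values against fresh medium, and the counts of calls below, are therefore descriptions. The rise in SEN CM myotubes was lost with library totals (0.60, adjusted p = 0.132, edgeR) and with limma on TPM (0.036 with a pseudocount of 1, adjusted p = 0.866, and 0.080 with 0.1, adjusted p = 0.847). The difference in PRO CM myotubes was called with library totals (-1.48, adjusted p = 0.00582, edgeR) and without PRO CM library 2 (-1.26, adjusted p = 0.0318, edgeR).

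None of the other 3 transcripts was called against fresh medium. In SEN CM myotubes the log2 differences were 0.44 for Dkk1 (SE 0.29, adjusted p = 0.233), -0.46 for Chrd (SE 0.45, adjusted p = 0.425) and -0.012 for Grem1 (SE 0.48, adjusted p = 0.986) in edgeR. In PRO CM myotubes they were -0.40 for Dkk1 (SE 0.30, adjusted p = 0.343), -0.92 for Chrd (SE 0.47, adjusted p = 0.156) and -0.52 for Grem1 (SE 0.51, adjusted p = 0.495). The counts are 1 of 4 called in SEN CM myotubes, where 37.7% of all transcripts were called and 18.6% were called higher, and 0 of 4 by edgeR in PRO CM myotubes, where 24.5% were called. Of these 4, 1 had an unadjusted p under 0.05, and DESeq2 and limma on TPM also called 0. Libraries did not overlap for 1 of 4 in SEN CM myotubes, where 54.9% of all transcripts did not, and for 2 of 4 in PRO CM myotubes, where 37.3% did not. Library totals moved the median of all transcripts to -0.76 and -0.60 and the calls from 4291 higher and 4429 lower to 1303 higher and 11778 lower for SEN CM myotubes, and from 2764 and 2899 to 810 and 9124 for PRO CM myotubes. With them, Chrd was called lower in both media (-1.13, adjusted p = 0.0469, and -1.50, adjusted p = 0.0184, edgeR) and Dkk1 lower in PRO CM myotubes (-0.999, adjusted p = 0.0266, edgeR).

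Per length, Dkk1 was the largest of the 4 and the mix of the 3 BMP antagonists differed between groups. Dkk1 had means of 90.9 TPM in SEN, 29.7 in PRO, 16.9 in MT_10%, 3.49 in MT_0.25%, 2.11 in SEN CM myotubes and 1.73 in PRO CM myotubes. Nog2, Grem1 and Chrd together had 15.2 ± 4.56 TPM in SEN, 10.5 ± 2.77 in MT_10%, 4.37 ± 2.12 in PRO, 1.51 ± 0.838 in MT_0.25%, 0.850 ± 0.260 in SEN CM myotubes and 0.849 ± 0.416 in PRO CM myotubes. Grem1 made up 75.7 to 81.5% of this sum in the PRO libraries and 58.2 to 58.6% in SEN, while Nog2 made up 17.9 to 23.4% and 34.3 to 37.4%. In MT_10% the Nog2 share was 44.7 to 62.9%, the largest mean share of any group. Chrd stayed under 10% in every library.

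The deposited length of 3 of the 4 transcripts differed between libraries. Its mean was shorter in each low-serum myotube group than in PRO, SEN and MT_10%. Within the low-serum groups it did not follow the reads. Grem1 had a mean of 660.4 bases on 66 reads in SEN CM myotubes and 453.7 on 121 reads in MT_0.25%. Chrd, which had the fewest reads of the 4, had a length of 6018 bases in all 18 libraries. Grem1 had 1142 to 1143 bases in PRO, 1132 to 1142 in SEN and 1089 to 1142 in MT_10%, but 369.9 to 500.7 in MT_0.25%, 421.9 to 480.3 in PRO CM myotubes and 627.7 to 712.2 in SEN CM myotubes. Nog2 had 1232 bases in PRO and MT_10%, 1111 to 1203 in MT_0.25% and 855.1 to 1154 in PRO CM myotubes. Dkk1 had 796.3 to 798.5 in PRO and SEN and 658.2 to 789.0 in low-serum myotubes. A shorter length raises TPM for the same reads. The TPM folds of Grem1, Nog2 and Dkk1 between MT_0.25% and PRO or MT_10% were smaller than those in CPM. Mean lengths in MT_0.25% and PRO were 1166 and 1232 bases for Nog2 and 701.1 and 797.0 for Dkk1. Chrd, at a single length, was 1.09-fold lower in MT_0.25% than in PRO by CPM and 2.40-fold higher by TPM. Over all transcripts the median log2 fold change of MT_0.25% against PRO was 1.37 with limma on log2(TPM + 0.1) and 0.20 with TMM. The parts of length and of scaling in these folds were not tested. Only 25.0% of all 27395 entries had a single length in every library. A contig has a single length, so an entry whose length differs between libraries may hold more than a single sequence, which was not tested.

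**Figure D4:**
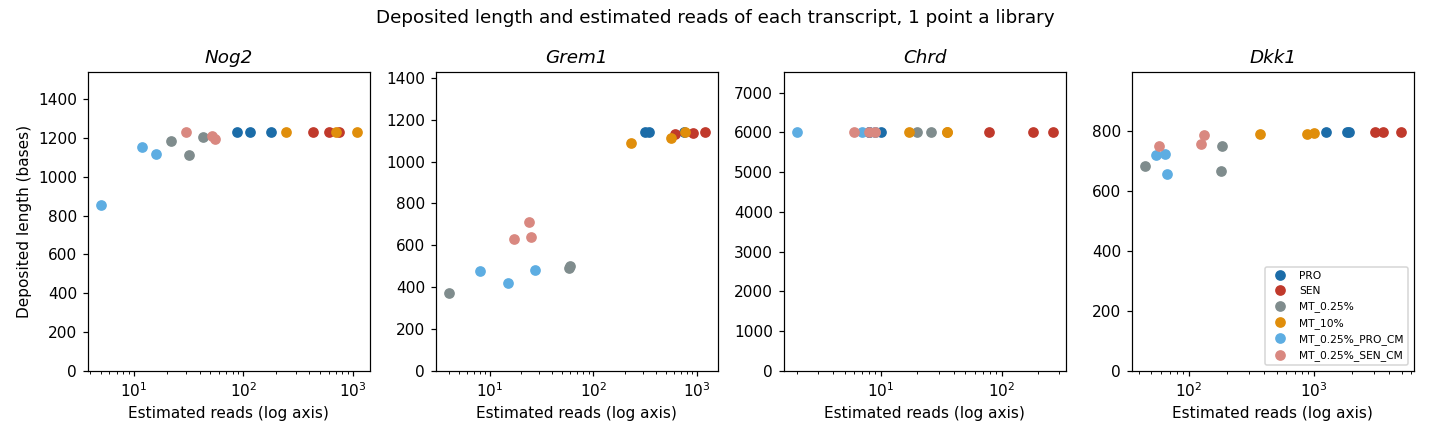
Deposited length in bases (y axis) against estimated reads (x axis, log) for each antagonist transcript, 1 point a library, coloured by group. Grem1 had 369.9 to 712.2 bases in the 9 low-serum myotube libraries and 1089 to 1143 in the other 9, whereas Chrd had 6018 in all.

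How far Chrd stood from the other 3 over the 18 libraries depended on the measure. Grem1 and Dkk1 were most alike (Pearson r of log2(CPM + 1) 0.966, Spearman 0.917). In order of r, Nog2 and Grem1 (0.909 and 0.808) and Nog2 and Dkk1 (0.841 and 0.853) followed. Chrd had lower r with the other 3, at 0.641 to 0.691. Its Spearman correlations were 0.825 with Nog2, 0.816 with Grem1 and 0.765 with Dkk1, so by rank it was not clearly apart. These are descriptions over libraries that share groups and depth, with no test.

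Among the named transcripts of the study, those most like each antagonist were searched over the same 18 libraries. For Grem1 they included Dkk1 and Timp1.1 (r = 0.952), and for Dkk1 they included the metalloprotease Mmp9th (r = 0.972) and Grem1. For Nog2 they were the ligand Fgf19 and Grem1 (r = 0.909 each) and Mmp9th (r = 0.850). For Chrd they were the receptor Fgfr1 (r = 0.945), the entry Protein Wnt.1 (r = 0.859) and Mmp3/10a (r = 0.848), all highest in SEN. Over all tested transcripts with a mean of at least 1 CPM, the 3 most alike had r of 0.953 to 0.959 for Nog2, 0.986 to 0.987 for Grem1, 0.970 for Chrd and 0.993 to 0.995 for Dkk1. None of these 12 has a name in the study's table. The highest were comp3834755_c0_seq1 for Dkk1 and comp575909_c0_seq4 for Grem1. By Spearman's rank correlation, 1 of the 3 was the same for Nog2 and 0 of 3 for the others.

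The wider Wnt and BMP lists of the study hold 32 other transcripts, of which 26 were tested. In SEN against PRO 14 were called higher and 4 lower (median log2 fold change 1.19, against 0.27 over all transcripts tested), and in MT_0.25% against PRO 13 higher and 6 lower (0.58 against 0.20). In MT_10% against MT_0.25% 4 were called higher and 4 lower (-0.11 against 0.035). In SEN CM myotubes against PRO CM myotubes 1 was called higher and 0 lower by edgeR and DESeq2 (0.085 against 0.027), and 0 higher and 2 lower by limma on TPM. With library totals the first count was 18 higher and 1 lower, with a median of 2.10 against 1.20. Over all transcripts tested, edgeR called 50.9% in SEN against PRO, 69.7% in MT_0.25% against PRO and 40.0% in MT_10% against MT_0.25%. Between the conditioned media it called 8.34%. The study chose these lists on the same libraries.

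Of 5 other BMP antagonists and chordin-like transcripts, 4 were tested. Vwc2, whose closest hit is the BMP-binding protein brorin, rose in SEN as Chrd did, from 0.0726 ± 0.0117 to 0.605 ± 0.155 CPM (log2 fold change 3.03, SE 0.63, adjusted p = 4.55e-04, edgeR), on 7 and 88 reads over the libraries. Kcp, a kielin/chordin-like transcript, had 4 to 13 reads in each group and was not tested. The 2 entries named Cd247, whose closest hit is also kielin/chordin-like, differed from each other. Cd247.1 was higher in SEN (2.82, SE 0.85, adjusted p = 0.00866, edgeR) and in MT_0.25% (3.29, SE 0.84, adjusted p = 0.00158, edgeR) than in PRO, and Cd247.2 was not called in either.

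The BMP ligands that these antagonists bind were led by a single transcript. Bmp7 had 2219 ± 552.9 TPM in PRO, 1717 ± 379.0 in SEN, 678.6 ± 250.0 in MT_0.25% and 1271 ± 138.9 in MT_10%. The other 4 ligand entries summed to 17.6 ± 3.40, 35.3 ± 9.31, 25.2 ± 0.613 and 29.1 ± 3.21 TPM in the same order. The 3 BMP antagonists together, at 0.849 to 15.2 TPM by group, were below Bmp7 in every group. The Bmp7 entry has a deposited length of about 102 bases, which raises its TPM, and its annotated reading frame ends beyond that length, so this order rests on an uncertain entry. Of the 5 ligand entries, Bmp2 and Bmp5 were called higher and Bmp7 lower in SEN than in PRO by edgeR. Bmp2 rested on 13 and 66 reads over the PRO and SEN libraries, which overlapped, and Bmp5, on 8 and 39 reads, was not called with DESeq2 (adjusted p = 0.0850). For Bmp7 the log2 difference was -1.58 (SE 0.22, adjusted p = 5.48e-06, edgeR) with TMM, -0.63 (adjusted p = 0.0255) with library totals and -0.36 (adjusted p = 0.226) with limma on log2(TPM + 0.1). The receptor transcript Bmpr1b.1 was called higher in SEN (1.38, SE 0.45, adjusted p = 0.0152, edgeR) and Bmpr1b.2 in MT_0.25% (2.50, SE 0.66, adjusted p = 0.00228, edgeR), each against PRO. Bmpr1b.2 was near the floor, with means of 0.0462 CPM in PRO and 0.283 in MT_0.25%. For Bmpr1b.1 the annotated reading frame ends beyond the deposited length.

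On the Wnt side, 12 of 17 ligand entries were tested. In SEN against PRO 7 were called higher and 2 lower (9 and 0 with library totals), and in MT_0.25% against PRO 7 higher and 3 lower (7 and 2). Over all transcripts tested 50.9% and 69.7% were called in these comparisons, and 8.34% between the conditioned media. With library totals 14356 and 13930 of all 23107 were called higher in SEN and in MT_0.25% than in PRO. No trait of the Wnt ligands is read from these counts. In SEN CM myotubes against PRO CM myotubes 0 of 12 were called by edgeR and DESeq2, 2 had an unadjusted p under 0.05 in each, and limma on TPM called 1 lower. Axin2, an inhibitor within the pathway that Wnt signals themselves induce, had 0.841 ± 0.0983 CPM in PRO, 0.541 ± 0.177 in SEN, 1.55 ± 0.0757 in MT_0.25% and 1.05 ± 0.0424 in MT_10%. It was higher in MT_0.25% than in PRO (0.89, SE 0.26, adjusted p = 0.00469, edgeR), the direction opposite to Dkk1, though not called with limma on log2(TPM + 0.1) (0.40, adjusted p = 0.317). Its TPM libraries overlapped, at 0.910 to 1.26 in PRO and 0.822 to 1.86 in MT_0.25%. The mean deposited length of Axin2 was 199.3 bases in PRO and 600.0 in MT_0.25%, and its annotated reading frame ends beyond the deposited length. In MT_10% against MT_0.25% its log2 difference was -0.56 (SE 0.25, adjusted p = 0.0746, edgeR), not called.

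**Figure D5:**
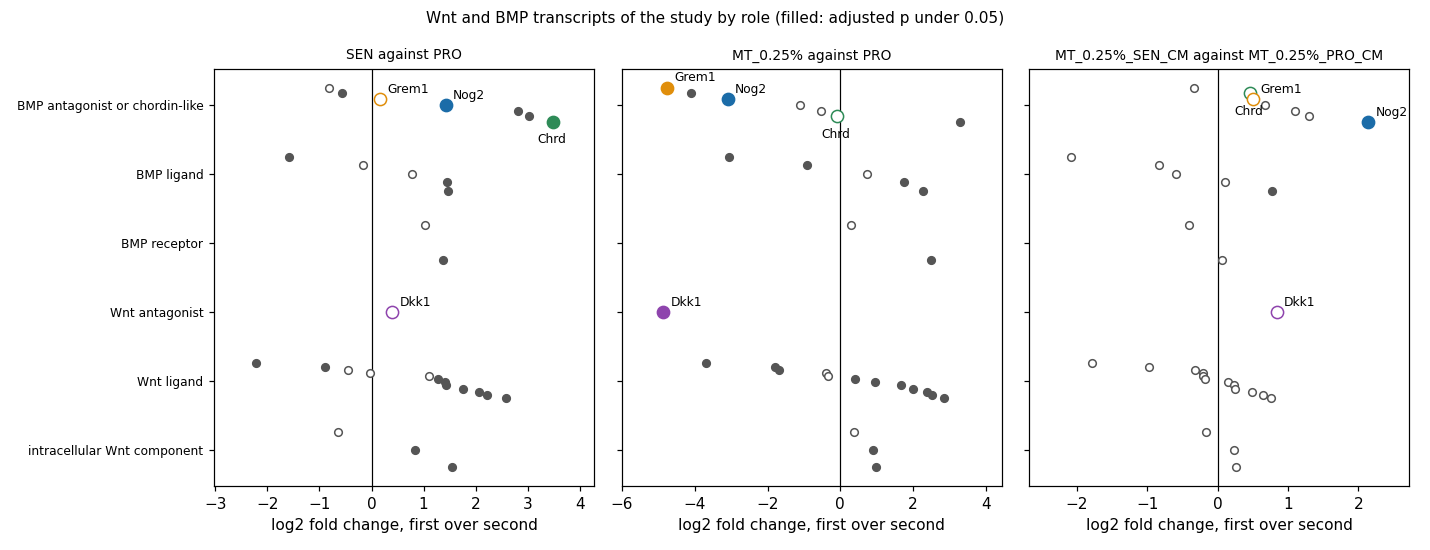
Log2 fold change (x axis) of the tested Wnt and BMP transcripts by role (y axis) in 3 comparisons, with Nog2, Grem1, Chrd and Dkk1 drawn larger and named. Filled points have an adjusted p under 0.05, and Chrd has the largest rise of its role in SEN (3.48) and Nog2 in SEN CM myotubes (2.13). For the named transcripts, filled points in MT_0.25% against PRO are descriptions.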

How the data were processed

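Bulk RNA-seq of 18 A1 newt libraries, 3 in each of 6 groups from the sample labels, was re-analysed. Per the study's methods, TrimGalore-trimmed reads were assigned by Sailfish to contigs of a de novo transcriptome. No source used here gives the Sailfish version. The estimated counts that the authors deposited are the reads assigned to each of 27395 entries, and the deposited TPM values come from the same run. Names came from the study's table of heat map transcripts, whose library values matched 123 entries. The 4 transcripts, the lists and the rule for naming others (the study's Wnt and BMP panels, and the 3 transcripts most alike) were chosen with earlier results of these data known. A transcript that this rule also names is not reported here.

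After rounding, all libraries entered 1 edgeR 4.0.16 model (R 4.3.3) with TMM, filterByExpr and a mean for each group. Each standard error is the log2 fold change divided by the root of its F. Alternatives were RLE scaling, DESeq2 1.42.0, no filter, only the groups compared, limma 3.58.1 on TPM with a pseudocount of 1 or 0.1, the replicate block, each library left out, and, added after seeing the data, library totals. In SEN against PRO, deviations of libraries with the same replicate number had weak positive correlations (0.156, 0.194 and 0.225). Differently numbered libraries were not set beside them, and the labels say nothing of what a number shares. No pairing is therefore read from these values. The block changed no call there. The edgeR test was also run on simulated counts. Each transcript had its overall mean in every group there, and only transcripts with a mean above 1 CPM were changed. That setting differs from low-level transcripts such as Chrd in myotubes, and nothing is read from it. Low counts limit Chrd most, and intervals cover the spread between libraries only.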

Additional observations from a re-analysis of the deposited data

How the results depend on the processing

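Of 335 alternative fold changes of the 4 transcripts, 294 counted as unchanged. In the tested comparisons this means the same direction and the same side of the threshold. In the untested serum comparison it means the same direction and a shift smaller than the SD of log2 CPM between libraries. With library totals the calls that changed, all given above, were Grem1 (1.10) and Dkk1 (1.36) in SEN against PRO, Nog2 (-1.48), Chrd (-1.50) and Dkk1 (-0.999) in PRO CM myotubes against MT_0.25%, and Nog2 (0.60) and Chrd (-1.13) in SEN CM myotubes against MT_0.25%. With them the sign turned for Dkk1 (-0.21) in the last comparison and for Chrd (0.91) in MT_0.25% against PRO. With limma on log2(TPM + 1) and then log2(TPM + 0.1), Grem1 (1.19 and 1.41) and Dkk1 (1.58 and 1.61) were called in SEN. Over all 23107 transcripts tested, these settings called 14317 and 15808 higher in SEN, at medians of 0.63 and 1.18. Nog2 lost its call against PRO CM myotubes (0.24 and 0.88) and against MT_0.25% (0.036 and 0.080) in SEN CM myotubes. Signs turned for Grem1 between the conditioned media (-0.19 and -0.41), for Chrd in MT_0.25% against PRO (0.065 and 0.43) and for Dkk1 in SEN CM myotubes against MT_0.25% (-0.47 and -0.61). The serum values moved to 2.23 and 3.62 for Nog2, 1.55 and 2.34 for Grem1, 0.093 and 0.49 for Chrd and 2.09 and 2.41 for Dkk1. The Grem1 value near 0 in SEN CM myotubes against MT_0.25% also turned with RLE scaling (0.010), without the filter (0.00080) and with DESeq2 (0.055), and ran from -0.38 to 0.32 with a library left out. Leaving out a library gave -0.074 to 0.53 for Grem1 in SEN against PRO and -1.26 to -0.58 for Nog2 in PRO CM myotubes against MT_0.25%. The cause of these changes was not tested.

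The replicate block changed no call of the 4 transcripts. Nog2 in SEN CM myotubes against PRO CM myotubes, for example, had 2.14 with the block (adjusted p = 0.00177, edgeR), and the number of transcripts called there went from 1927 to 1697. That number was 1256 with library totals and 619 to 1268 without PRO CM library 1 or 2 or SEN CM library 1 or 2. Against fresh medium, 9934 in place of 5663 were called with library totals for PRO CM myotubes, and 13081, 14697 (TPM + 1) and 14436 (TPM + 0.1) in place of 8720 for SEN CM myotubes. A library left out lowered these to as few as 3159 and 4678. Carry-over markers at 20-fold and 100-fold had medians of 12.8% and 2.24% of PRO in MT_10%. Outside SEN against PRO, no comparison had a correlation over 0.1 in all 3 same-numbered pairs, though in SEN CM myotubes against MT_0.25% all were positive (0.297, 0.0741 and 0.273).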
